A study of Homo sapiens with 4 samples.

Results

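The genes described here are those of DNA repair and DNA replication in HeyA8 cells, a human ovarian cancer line, before and after silencing of extracellular matrix protein 1 (ECM1). They were chosen by symbol alone, from the families BRCA, RAD, FANC, XRCC, ERCC, MSH, MLH, PMS, PARP, POL, REV, MCM, RFC, LIG, NEIL, CHEK and RECQL and from a few single names such as ATM, ATR, BLM, WRN and MUTYH. The rule took 106 of the 9885 genes listed. They carry 105 different symbols, since ATRIP stands under 2 identifiers. By textbook function or family, 101 of them fell into 13 lists. The list of 8 other PARP genes goes by family name and not by a repair role. The remaining 5 genes (MSH5-SAPCD1, ERCC6L2, MCM3AP, RAD54L2 and MCM3AP-AS1) were in none of the lists and are called matched by name only.

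RNA-seq was performed on 4 lines, with 1 library each. A8 is the HEY-derived parental line. A8i is HeyA8 with stable silencing of ECM1 by an shRNA delivered in a lentivirus and selected with puromycin. A8i cells given a cDNA of HA-tagged ECM1a or ECM1b make up A8i-A and A8i-B, respectively, which thus carry the ECM1 shRNA too. Such lines were selected by GFP sorting or with zeocin or hygromycin, and which was used for each is not stated. Lines with a scrambled shRNA or an empty vector were not analysed here, so that virus infection and drug selection cannot be told apart from the change in ECM1. The value deposited for each gene is a whole number of events, from 0 to 32, and the kind of event and the program that counted them are not stated, so the number is not read as an mRNA level. ECM1 itself had 2 events in each of the 4 libraries, which gives no check of its silencing. Of 11 epithelial and ovarian markers 7 were listed, namely KRT8 (7, 5, 5 and 6 events in A8, A8i, A8i-A and A8i-B), PAX8 (11, 7, 7 and 7), KRT7 (1, 2, 1 and 1), KRT18 (1 in each), WT1 (1, 0, 1 and 1), MSLN (2, 1, 2 and 3) and EPCAM, which was at 0 throughout. Of 6 mesenchymal markers 3 were listed, namely VIM (3, 1, 3 and 2), FN1 (9, 11, 10 and 11) and COL1A1 (1, 0, 1 and 1). Of 5 leukocyte markers only CD14 was listed, with 1 event in A8i-B, and of 4 endothelial markers none. In bulk RNA, fewer cells of a kind and less RNA per cell cannot be told apart. With 1 library per line no difference has a replicate check and no test was made.

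Cells mend DNA by several routes. Base excision repair removes single damaged bases, nucleotide excision repair removes bulky lesions, mismatch repair corrects copying errors, and double-strand breaks are joined end to end or copied from the sister chromatid by homologous recombination, with the Fanconi anaemia proteins acting on crosslinks between the strands. Replication uses the MCM helicase to open DNA, the RFC clamp loader to place PCNA, and the polymerases alpha, delta and epsilon to copy it, while checkpoint kinases slow the cycle when DNA is damaged. Loss of BRCA1 or BRCA2 is well known in ovarian cancer, where it goes with sensitivity to platinum drugs and PARP inhibitors.

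MUTYH had the most events of all 106 genes, and RFC2 and MCM8 were among those that differed most between A8 and A8i. Since the kind of event is not stated, their gene models are shown only as the places where annotated transcripts of these genes part. By GENCODE v44 on GRCh37, the build of the hg19 mapping that the methods give, MUTYH lies on the reverse strand of chromosome 1 from 45794835 to 45806565, with 48 annotated transcripts, 19 of them protein-coding. In its coding transcripts, 6 different exon ends are joined to 1 acceptor, the exon edge at 45800183. Each line below shows 30 bases, the last 15 of the exon and the first 15 of the intron, 5′ to 3′ on the strand of the gene, with the first 2 bases of the intron in capitals.
MUTYH chr1:45805876-45805905, in 7 coding transcripts: ctgagtcgtctgtggGTacgctggacttgc
MUTYH chr1:45805633-45805662, in 5 coding transcripts: tagagctcgcgggagGTaatctttctctcc
MUTYH chr1:45805556-45805585, in 3 coding transcripts: cagcgtgggccgcggGTagcgggtagtggg
MUTYH chr1:45804164-45804193, in 1 coding transcript: gtaaaattacattagGTaagagctacaagg
MUTYH chr1:45803843-45803872, in 1 coding transcript: ccaatggcctataagGTactttgtgaccct
MUTYH chr1:45801163-45801192, in 1 coding transcript: ctgaagaggaggaggGTaagacagtgcaaa

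RFC2 lies on the reverse strand of chromosome 7 from 73645829 to 73668788, and MCM8 on chromosome 20, forward strand, from 5931298 to 5979623. The lines below give their internal exons of at most 200 nt that at least 2 coding transcripts contain and at least 1 other coding transcript skips. Exons are in capitals with 10 intron bases on either side in lower case, and the coordinates are those of the exon in GRCh37. The exons of 102 and 141 nt are whole numbers of codons, and those of 107 and 31 nt are not.
RFC2 chr7:73660992-73661093 (102 nt, contained in 2 of 5 coding transcripts, skipped in 1): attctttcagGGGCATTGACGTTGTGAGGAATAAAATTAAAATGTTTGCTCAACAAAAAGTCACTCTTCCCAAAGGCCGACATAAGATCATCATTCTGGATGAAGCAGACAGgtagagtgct
RFC2 chr7:73663342-73663448 (107 nt, contained in 2 of 5 coding transcripts, skipped in 1): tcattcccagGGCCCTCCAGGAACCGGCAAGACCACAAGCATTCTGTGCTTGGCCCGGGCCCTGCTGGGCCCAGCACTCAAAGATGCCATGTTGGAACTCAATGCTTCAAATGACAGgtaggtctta
MCM8 chr20:5952653-5952683 (31 nt, contained in 4 of 5 coding transcripts, skipped in 1): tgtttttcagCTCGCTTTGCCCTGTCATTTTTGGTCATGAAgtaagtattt
MCM8 chr20:5953702-5953842 (141 nt, contained in 4 of 5 coding transcripts, skipped in 1): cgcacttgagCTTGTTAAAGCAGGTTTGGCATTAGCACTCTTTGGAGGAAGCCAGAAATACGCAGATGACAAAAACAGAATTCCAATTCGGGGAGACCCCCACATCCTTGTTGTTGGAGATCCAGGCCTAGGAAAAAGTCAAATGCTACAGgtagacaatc

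The 106 genes together had 333, 286, 320 and 347 events in A8, A8i, A8i-A and A8i-B. The 95% exact Poisson intervals of these totals were 298–371, 254–321, 286–357 and 311–386; they treat each event as independent and hold counting error alone. As a share of all events of the library, the genes made up 1.36% (95% exact Clopper-Pearson interval, 1.22–1.51%), 1.39% (1.24–1.56%), 1.41% (1.26–1.57%) and 1.43% (1.29–1.59%) in the same order of libraries. The share was thus similar in the 4 libraries, and A8i had the fewest events both of these genes and of all genes. At least 1 event was listed for 95, 83, 88 and 93 of the genes in the same order (89.6, 78.3, 83.0 and 87.7%). Over all genes these shares were 82.2, 73.7, 78.9 and 81.6%, and A8i was lowest there too. An event in every library was listed for 72 of the genes (67.9%), against 60.6% of all genes. The median gene of the group had 8 events summed over the 4 libraries, against 6 for all genes.

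**Figure D1:**
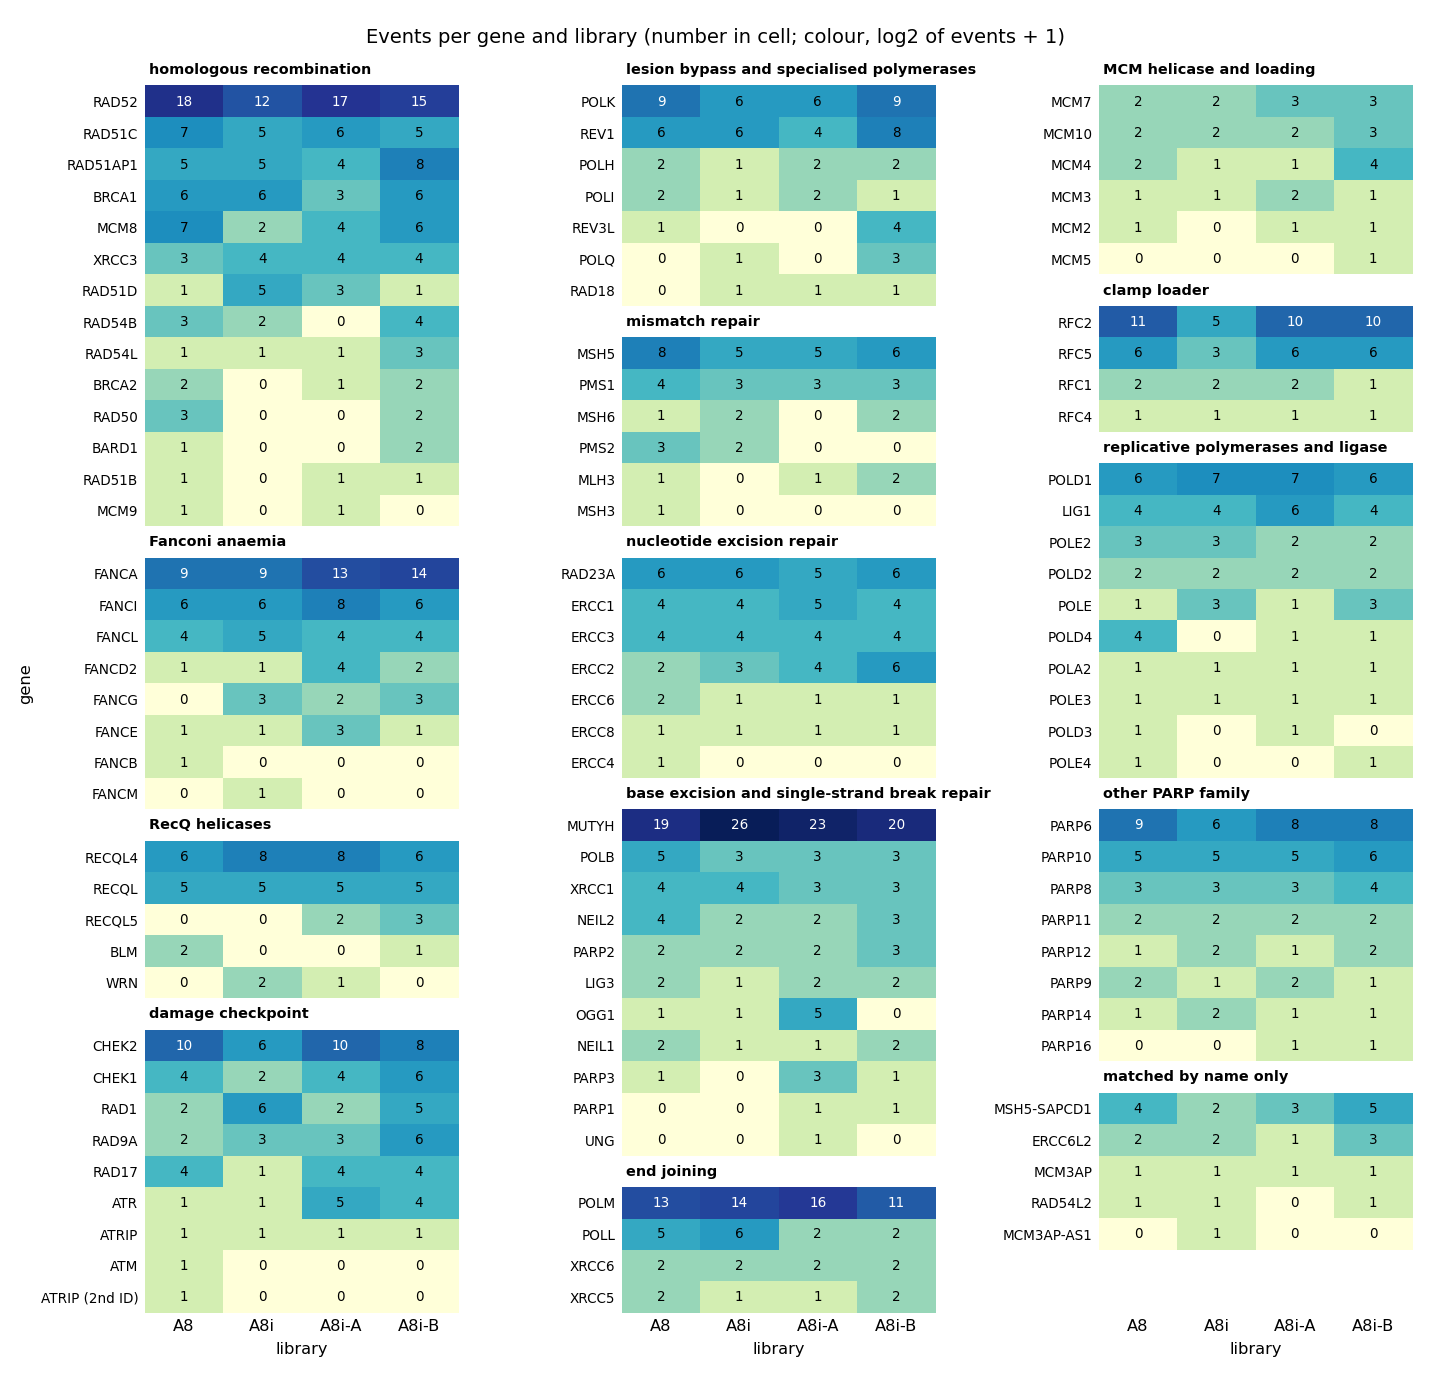
Events of 104 of the 106 genes (rows, ordered by function and then by total) in the 4 libraries (columns); the number is the count of events and darker cells hold more, on a log2(events + 1) colour scale. MUTYH, RAD52 and POLM are dark in every column, and most other rows are pale.

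The shares of these genes that differed little between the lines were slightly below those of all genes. The number of events was the same in all 4 libraries for 11 genes (10.4%, against 15.3% of all genes) and stayed within 1 event for 54 (50.9%, against 54.7%). All genes include 167 listed at 0 in all 4 libraries, which count as equal, and none of the 106 genes was among those. The median gene of the group also had more events over the libraries, 8 against 6. RECQL, a RecQ helicase, had 5 events in each library and ERCC3, a helicase subunit of TFIIH, had 4. POLD2, XRCC6 and PARP11 had 2 events in each, and ATRIP, the partner of ATR, had 1 under its main identifier. At the other end, 8 genes spanned 5 events or more, among them MUTYH (7 events between the lowest and the highest library), RAD52 and RFC2 (6), and FANCA, MCM8, OGG1 and POLM (5). For none of the 106 genes did the 95% exact Poisson intervals of the lowest and the highest library lie apart, as they did for 23 of all 9885 genes. A gene listed at 0 has an interval of up to 3.69 events, which overlaps even that of 8 events (from 3.45). The intervals of a gene with fewer than 9 events in every library thus could not lie apart. Most of the 106 genes were of this kind, so the overlap does not show that their numbers were alike. These intervals too treat each event as independent, which is not known for these numbers.

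The genes with the most events came from different repair routes. MUTYH, the glycosylase that removes adenine paired with oxidised guanine, had 19, 26, 23 and 20 events in A8, A8i, A8i-A and A8i-B, and was highest in A8i. RAD52, which anneals single strands, had 18, 12, 17 and 15 events and was lowest in A8i. POLM, a polymerase that fills ends during end joining, had 13, 14, 16 and 11. Divided by the exons of the transcript with the most exons, these were the leading genes as well, with a mean of 12.9 events per 10 exons for MUTYH, 12.3 for POLM and 11.1 for RAD52. FANCA, a subunit of the Fanconi anaemia core complex, had 9, 9, 13 and 14 events, but only 2.56 per 10 exons because of its 44 exons. RFC2 followed with 11, 5, 10 and 10 events, or 8.18 per 10 exons. Of the other genes among the 12 with the most events, CHEK2 had 10, 6, 10 and 8, PARP6 had 9, 6, 8 and 8, POLK had 9, 6, 6 and 9, and RECQL4 had 6, 8, 8 and 6. FANCI (6, 6, 8 and 6), POLD1 (6, 7, 7 and 6) and MSH5 (8, 5, 5 and 6) completed them. CHEK2 has near-identical pseudogene copies, and MSH5 overlaps the read-through gene MSH5-SAPCD1 (4, 2, 3 and 5 events) on the same strand, so that the counting could have split their events. MUTYH, RAD52, PARP6 and POLD1 also overlap other annotated genes on the same strand, with the same limit.

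Event numbers went weakly with how many alternatives are annotated for a gene. Across the 105 genes matched to the annotation, which are not independent replicates and share the same 4 libraries, the events summed over libraries had a Pearson's r of 0.34 and a Spearman's rho of 0.34 with the number of internal exons that another transcript of the gene skips. Over all 9818 genes matched, r was 0.32 and rho 0.40. For the number of annotated transcripts the values were 0.20 and 0.28, beside 0.37 and 0.47 over all genes, and for the number of exons 0.04 and 0.06, beside 0.13 and 0.24. The 45 genes with more than 16 annotated transcripts had a median of 13 events over the libraries, and the 60 with 16 or fewer had a median of 6. PMS2 had 40 exons that another transcript skips and a mean of 1.25 events, whereas MUTYH had 27 and a mean of 22.0.

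**Figure D2:**
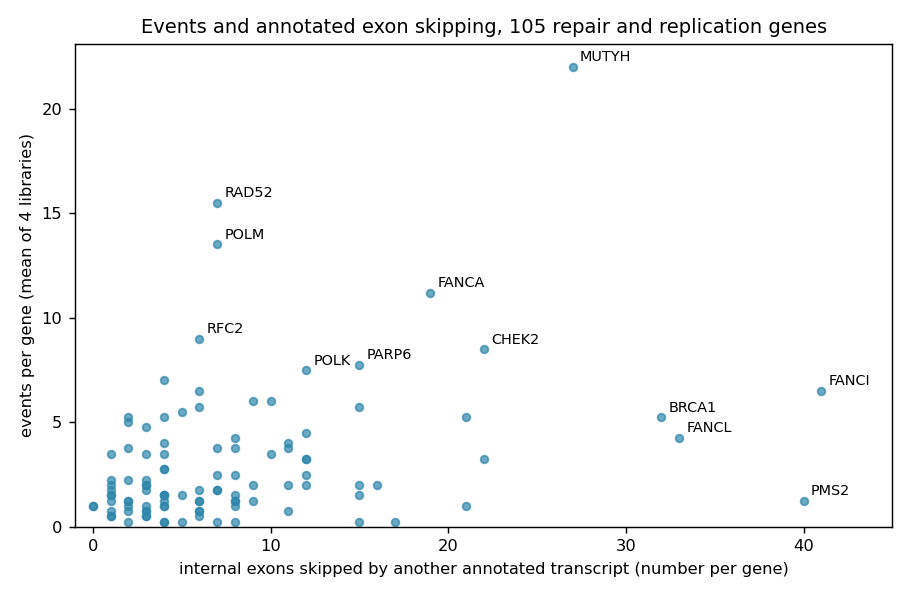
Mean number of events over the 4 libraries (vertical axis) against the number of internal exons skipped by another transcript annotated for the same gene (horizontal axis), 1 point for each of 105 genes. MUTYH lies at 27 exons and 22.0 events, RAD52 and POLM at 7 exons each with 15.5 and 13.5 events, and PMS2 at 40 exons and 1.25 events.

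A8i and A8 were compared to see what changed when ECM1 was silenced. The total over the 106 genes was lower in A8i, at 85.9% of that in A8 (95% exact Clopper-Pearson interval, 73.1–101.0%), and over all genes it was 83.8%. Once each library was scaled to its total, the value was 103%, so the lower number went with the lower total of the A8i library. Events were more numerous in A8i for 22 of the genes (20.8%, beside 19.7% of all genes), fewer for 44 (41.5%, beside 38.5%) and equal for 40. The mean log2 ratio, with 1 added to each number, was -0.21, against -0.19 over all genes (median 0 in both). A gene was called past the fold if (events + 1) differed at least 2-fold and the numbers differed by at least 2. By this rule 5 of the 106 genes (4.72%) had more events in A8i, beside 3.46% of all genes, and 7 (6.60%) had fewer, beside 10.2% of all genes. Scaled to the library totals, the split was 5 with more and 4 with fewer, beside 3.79% and 4.18% of all genes. These shares were near those of all genes.

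The 7 genes with fewer events in A8i than in A8 belonged to several routes. MCM8, a helicase of homologous recombination, had 7 events in A8 against 2 in A8i, with 4 in A8i-A and 6 in A8i-B. RFC2, a subunit of the clamp loader, had 11 events in A8 and 5 in A8i, with 10 in both isoform lines. RAD17, which takes the place of RFC1 beside RFC2 to RFC5 to load the checkpoint clamp, had 4 events in A8 and 1 in A8i. In these genes the isoform lines lay above A8i. POLD4, the smallest subunit of polymerase delta, had 4, 0, 1 and 1 events in A8, A8i, A8i-A and A8i-B. RAD50, of the complex that binds broken ends, had 3, 0, 0 and 2, and BLM, a RecQ helicase, had 2, 0, 0 and 1. BRCA2, a mediator of strand exchange in recombination, had 2, 0, 1 and 2. For RAD50 and BLM, A8i and A8i-A were both at 0. After scaling, MCM8, POLD4, RAD17 and RAD50 were past the fold and RFC2, BLM and BRCA2 were not.

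The 5 genes with more events in A8i than in A8 stayed past the fold with scaling. RAD1, a subunit of the checkpoint clamp, had 2 events in A8 against 6 in A8i, with 2 in A8i-A and 5 in A8i-B. RAD51D, a recombination protein, had 1, 5, 3 and 1 events. FANCG, of the Fanconi anaemia core complex, had 0, 3, 2 and 3, and A8 alone was at 0. POLE, the catalytic subunit of polymerase epsilon, had 1, 3, 1 and 3, and WRN, the helicase lost in Werner syndrome, had 0, 2, 1 and 0. For RAD51D and WRN, A8i was the highest library and A8 and A8i-B were equal.

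A8i-A and A8i were compared to see what ECM1a changed in silenced cells. The total of the 106 genes in A8i-A was 112% of that in A8i (95.1–132%), beside 110% over all genes, and 101% once scaled. There were 7 genes (6.60%) past the fold with more events in A8i-A, beside 8.35% of all genes, and 6 (5.66%) with fewer, beside 4.82%. Scaled, the split was 6 and 6, beside 5.79% and 4.83% of all genes, and FANCE was no longer past the fold. Again the shares were near those of all genes. ATR, the checkpoint kinase activated by single-stranded DNA, had 1, 1, 5 and 4 events in A8, A8i, A8i-A and A8i-B. OGG1, the glycosylase for oxidised guanine, had 1, 1, 5 and 0 events and PARP3 had 1, 0, 3 and 1, so that both were highest in A8i-A. FANCD2, which is monoubiquitinated with FANCI at crosslinks, had 1, 1, 4 and 2 events, and FANCE, the core complex subunit that binds it, had 1, 1, 3 and 1. RECQL5 had 0, 0, 2 and 3, and RAD17 had 1 event in A8i and 4 in every other line. Fewer events in A8i-A than in A8i were listed for RAD1 (2 against 6), POLL (2 against 6) and POLE (1 against 3). MSH6, RAD54B and PMS2 had 2 events each in A8i and 0 in A8i-A. POLL, a polymerase of end joining, had 5 events in A8 and 2 in both isoform lines.

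A8i-B and A8i were compared to see what ECM1b changed. The total in A8i-B was 121% of that in A8i (103–142%), beside 118% over all genes, and 103% once scaled. In A8i-B 14 genes (13.2%) were past the fold with more events, beside 10.7% of all genes, and 5 (4.72%) with fewer, beside 3.96%. After scaling the split was 7 with more and 5 with fewer, beside 4.05% and 4.25% of all genes. CHEK1, the kinase downstream of ATR, had 4, 2, 4 and 6 events in A8, A8i, A8i-A and A8i-B. REV3L, the catalytic subunit of polymerase zeta, had 1, 0, 0 and 4 events, and MCM4, of the replicative helicase, had 2, 1, 1 and 4. MCM8 had 6 events in A8i-B against 2 in A8i, ATR 4 against 1 and RAD17 4 against 1. These 6 genes and RECQL5 were past the fold with and without scaling. Without scaling only, BARD1, BRCA2, MLH3, MSH5-SAPCD1, POLQ, RAD50 and RAD54L were past it too. The 5 genes with fewer events included POLL (2 in A8i-B against 6 in A8i), RAD51D (1 against 5), PMS2 (0 against 2) and WRN (0 against 2). PMS2, a mismatch repair protein, had 3, 2, 0 and 0 events in A8, A8i, A8i-A and A8i-B. PMS2 shares sequence with many pseudogenes, which leaves its number uncertain.

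A8i-A and A8i-B, the lines with either isoform, share the A8i background. The total of the 106 genes in A8i-A was 92.2% of that in A8i-B (79.0–108%), beside 93.6% over all genes, and 98.5% once scaled. More events in A8i-A were listed for 5 genes past the fold (4.72%, beside 5.13% of all genes), and fewer for 11 (10.4%, beside 8.31%). Scaling left the 5 as they were and took the 11 to 4, beside 5.14% and 3.20% of all genes, so that the side with more genes depended on it. OGG1 had 5 events in A8i-A and 0 in A8i-B, FANCE 3 and 1, PARP3 3 and 1, and RAD51D 3 and 1. RAD54B, a motor protein of recombination, had 0 in A8i-A against 4 in A8i-B, with 3 in A8 and 2 in A8i, and was lowest in A8i-A. REV3L had 0 and 4 events, POLQ, the polymerase of microhomology-mediated end joining, had 0 and 3 (with 0 in A8 and 1 in A8i), and MCM4 had 1 and 4. These 4 genes were past the fold with scaling as well. RAD1 (2 and 5) and BARD1, the partner of BRCA1 (0 and 2, with 1 in A8 and 0 in A8i), were past it without scaling only, as were ERCC6L2, MSH6, POLE, RAD50 and RAD54L.

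**Figure D3:**
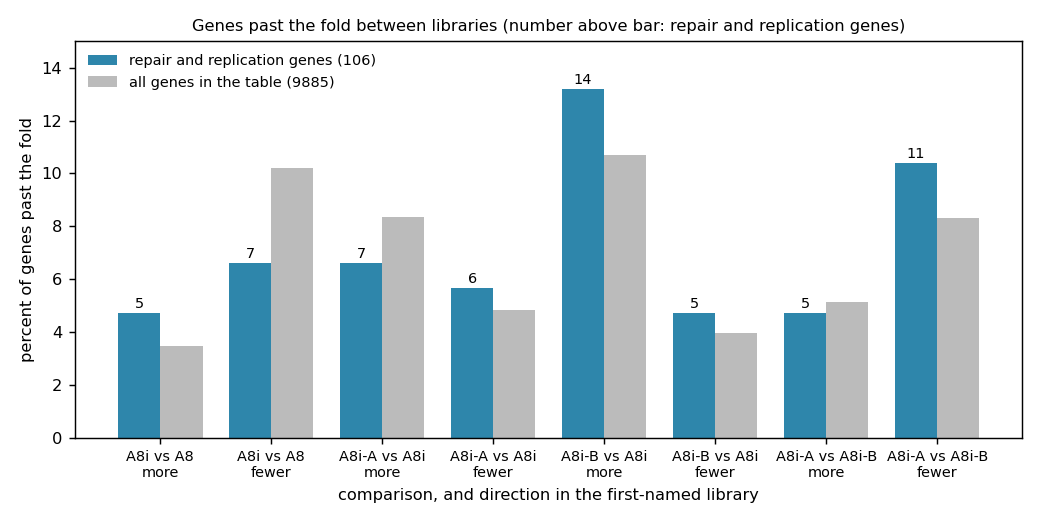
Percent of genes past the fold (vertical axis) in each of the 4 comparisons and each direction (horizontal axis), for the 106 repair and replication genes and for all 9885 genes, without scaling; the number over a bar counts repair and replication genes. The highest bar, 13.2% of the repair and replication genes, stands for more events in A8i-B than in A8i, where 10.7% of all genes are past the fold.

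Some genes had their lowest number in A8i and a higher one in each other line. A8i alone was lowest for 17 of the 106 genes (16.0%), beside 14.6% of all genes. They included RFC2, MCM8, RAD17, CHEK1, CHEK2, RAD52 and BRCA2. RFC5, another clamp loader subunit, had 6 events in A8, A8i-A and A8i-B and 3 in A8i. A8 alone was lowest for 7 genes (6.60%, beside 6.02% of all genes), A8i-A for 8 (7.55%, beside 9.07%) and A8i-B for 4 (3.77%, beside 6.17%). The genes lowest in A8i-B included OGG1, POLM and RFC1. A8i alone was highest for 9 genes (8.49%, beside 8.87%), MUTYH among them, and A8i-A for 11 (10.4%, beside 12.6%). A8 alone was highest for 20 genes (18.9%, beside 16.6%) and A8i-B for 21 (19.8%, beside 16.2%). These shares were not tested against those of all genes, and A8i, which was most often alone lowest, also has the lowest total of all libraries.

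**Figure D4:**
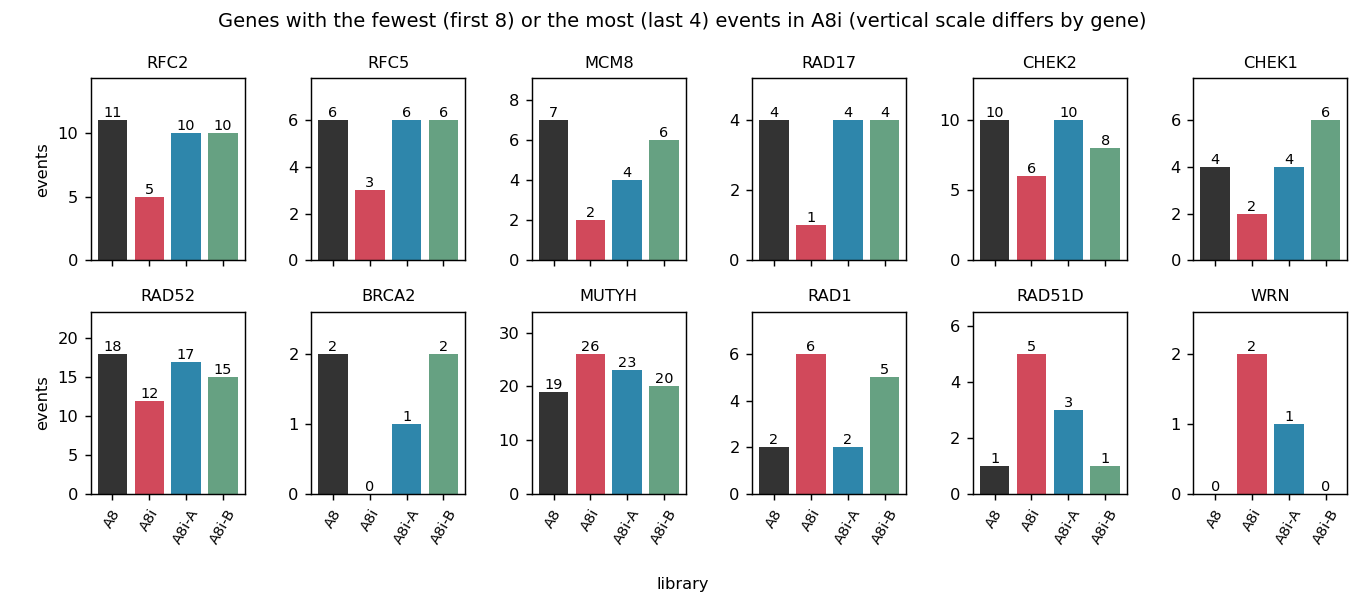
Events (vertical axis, from 0, with a scale of its own for each gene) in the 4 libraries for 8 genes whose number was lowest in A8i and for 4 genes whose number was highest there, chosen after their values were seen. RFC2 has 11, 5, 10 and 10 events and MUTYH 19, 26, 23 and 20 in A8, A8i, A8i-A and A8i-B.

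By function, homologous recombination had the most events in all, being the list with the most genes. Summed over the libraries, its mean per gene was 14.1 events, below end joining (20.8), the clamp loader (17.0) and base excision repair (14.9). By the median gene, base excision repair (7 events) lay below homologous recombination (9). Nucleotide excision repair (15), the clamp loader (14), the damage checkpoint (13) and end joining (11.5) lay above homologous recombination. MUTYH held 88 of the 164 events of base excision repair and POLM 54 of the 83 of end joining. RFC2 held 36 of the 68 of the clamp loader, and RAD52 62 of the 212 of homologous recombination. The 15 listed genes of homologous recombination had 60, 44, 47 and 61 events in A8, A8i, A8i-A and A8i-B. Their mean log2 ratio of A8i to A8 was -0.46 (median -0.42), beside -0.19 over all genes. RAD51C had 7, 5, 6 and 5 events, and RAD51AP1, which assists strand exchange, had 5, 5, 4 and 8. BRCA1 had 6 events in A8, A8i and A8i-B and 3 in A8i-A. BRCA2 had 2, 0, 1 and 2. The 8 Fanconi anaemia genes had 22, 26, 34 and 30 events. Between A8 and A8i, 3 of them had more in A8i (37.5%, beside 19.7% of all genes), 1 had fewer (12.5%, beside 38.5%) and 4 were equal (median log2 ratio 0). Their total in A8i was 118% of that in A8 (64.4–219%). The 5 RecQ helicases had 13, 15, 16 and 15.

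The 9 checkpoint entries had 26, 20, 29 and 34 events. RAD9A, which forms the checkpoint clamp with RAD1, had 2, 3, 3 and 6 events and was highest in A8i-B. ATM, the kinase activated by double-strand breaks, had 1 event in A8 and 0 in the other lines. The 4 clamp loader genes had 20, 11, 19 and 18 events, with the lower number of A8i in RFC2 and RFC5, while RFC4 had 1 event in each library. The 7 genes of lesion bypass and specialised polymerases had 20, 16, 15 and 28 events. They were highest in A8i-B, as were REV3L, POLQ and REV1 (6, 6, 4 and 8). The 7 genes on the mismatch repair list had 27, 17, 14 and 15 events. MSH5, listed with its MSH family and not for a known part in correcting mismatches, held 8, 5, 5 and 6 of those. MSH6, which recognises mismatches, had 1, 2, 0 and 2.

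Nucleotide excision repair, with 7 genes, had 20, 19, 20 and 22 events. Within it ERCC2, a helicase subunit of TFIIH, had 2, 3, 4 and 6, and the other 6 genes stayed within 1 event. Base excision and single-strand break repair, with 11 genes, had 40, 40, 46 and 38 events, of which MUTYH held the largest number in each library. PARP1, which senses strand breaks, had 0, 0, 1 and 1. The 4 end joining genes had 22, 23, 21 and 17 events, and the 10 replicative polymerase and ligase genes had 24, 21, 22 and 21. The 6 genes of the MCM helicase and its loading were low, with 8, 6, 9 and 13 events, and the 8 other PARP genes had 23, 21, 23 and 25. For none of the 13 lists and the 5 genes matched by name did the Poisson intervals of the list's totals lie apart between any of the libraries.

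**Figure D5:**
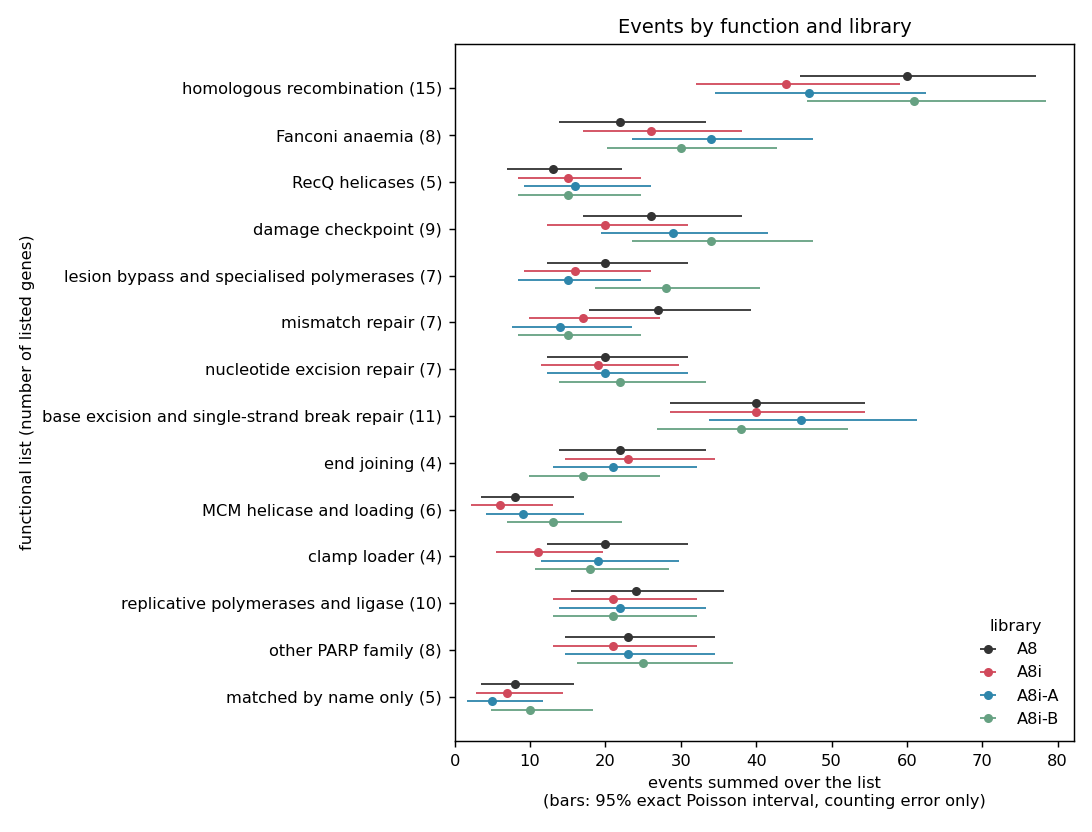
Events summed over the genes (horizontal axis) of each functional list (vertical axis) in the 4 libraries (points, by colour), with bars for the 95% exact Poisson interval, which covers counting error only. Homologous recombination lies between 44 and 61 events and the clamp loader between 11 and 20, and the bars of the 4 libraries overlap in every list.

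Other repair and replication genes, from a list of 110 symbols that the rule does not match, were listed for 84. PCNA, RPA1, RPA2, RPA3 and FEN1 were not among the genes listed. The 84 genes had 223, 195, 173 and 219 events in A8, A8i, A8i-A and A8i-B, and 66 of them had an event in every library. Past the fold in A8i against A8 were 2 with more (2.38%, beside 3.46% of all genes) and 9 with fewer (10.7%, beside 10.2%). In A8i-A against A8i there were 5 with more (5.95%, beside 8.35%) and 10 with fewer (11.9%, beside 4.82%). In A8i-B against A8i there were 8 with more (9.52%, beside 10.7%) and 3 with fewer (3.57%, beside 3.96%), and in A8i-A against A8i-B 2 with more (2.38%, beside 5.13%) and 14 with fewer (16.7%, beside 8.31%). The shares with fewer events in A8i-A thus lay above those of all genes, which was not tested. The counts past the fold for these 84 genes were not scaled to the library totals. In A8i-A, these genes had 88.7% (71.9–109%) of the events of A8i, beside 112% for the 106 genes and 110% over all genes, a difference that was not tested. MRE11A, the nuclease that works with RAD50, had 5, 3, 1 and 1 events in A8, A8i, A8i-A and A8i-B. NBN, the third subunit of that complex, had 3, 3, 1 and 3. TOPBP1, which activates ATR, had 4, 4, 1 and 3, and TOP3A, which resolves recombination intermediates together with BLM, had 5, 2, 1 and 5. RBBP8, which starts the trimming of broken ends, had 3, 1, 3 and 3, so that A8i alone was low. It was 1 of the 5 genes with more events in A8i-A than in A8i, against 10 with fewer. The others were HUS1 (2, 1, 4 and 3), UIMC1 (7, 3, 7 and 4), MBD4 (1, 1, 3 and 1) and SMARCAL1 (2, 1, 3 and 2).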

How the data were processed

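Total RNA of 4 HeyA8-derived lines was sequenced, with 1 library per line. According to the methods and labels, the authors trimmed reads with Trim Galore, checked them with FastQC, mapped them to hg19 with TopHat and estimated expression with Cufflinks 2.2.1; the labels list a mouse build. The deposited values used here are numbers of events per gene, another unit than read counts or FPKM. How they were counted and filtered, and whether strand was used, is not given in the sources used here, and sequencing depth per library cannot be read from them. Totals were 24513, 20535, 22691 and 24236 events in A8, A8i, A8i-A and A8i-B. Columns left unused numbered 0.

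Genes were taken by symbol. The genes and lists were chosen with earlier results of these data known. Log2 ratios used a pseudocount of 1. Past the fold means at least 2-fold on that scale and at least 2 events apart. Intervals are 95% exact Poisson, or Clopper-Pearson conditional on the sum of the totals. Read-count models were not used. Values in every library were given for the 12 genes with the most events, up to 6 genes past the fold per comparison and direction, a fixed set of genes (among them BRCA1, BRCA2, ATM, ATR, PARP1, CHEK1, CHEK2 and MSH6), and 6 genes equal in all libraries; others named were chosen after their values were seen. Some single-gene results are not reported here, but those genes stay in the totals and counts. Gene models came from GENCODE v44 on GRCh37, matched by Ensembl identifier for 105 of 106 genes. Of these, 36 overlap another gene on the same strand and 75 on the opposite strand. The scripts were tested on simulated data. Python 3.11.15, numpy 2.4.6, pandas 2.3.3, scipy 1.17.1 and matplotlib 3.10.9 were used.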

Additional observations from a re-analysis of the deposited data

How the results depend on the processing

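With 1 library per line, no library could be left out. No paired analysis was possible because each line has 1 library and the comparisons use no test. With each library scaled to its total over all genes, the total of the repair and replication genes in A8i was 103% of that in A8 in place of 85.9%, and that in A8i-B was 103% of that in A8i in place of 121%; the other 2 ratios stayed within their intervals, as did all 4 ratios for genes in a functional list only, without MUTYH, with an event in all 4 libraries, and without MSH5-SAPCD1 and the second ATRIP entry, the last of which was chosen after seeing the data. The same scaling took the genes past the fold from 7 to 4 with fewer events in A8i than A8, from 14 to 7 with more in A8i-B than A8i, and from 11 to 4 with fewer in A8i-A than A8i-B. Dropping the minimum difference of 2 events lets 0 against 1 count. There were then 9 with more and 21 with fewer in A8i than A8, and 17 and 10 in A8i-A against A8i. In A8i-B against A8i there were 23 and 8, and in A8i-A against A8i-B 9 and 15. The shares of all genes without this minimum were not calculated, so these splits are not read as a trait of these genes. At least 2 events were listed for 62 genes in A8, against 95 with at least 1. A pseudocount of 0.5, the filter of 4 events over the libraries and the functional lists changed no count by over 1.5 times.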

Other observations

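An event in 1 library only was listed for 9 of the 106 genes (8.49%, beside 14.1% of all genes), each with 1 event. ATM, ERCC4, FANCB, MSH3 and the second ATRIP entry were seen in A8 only, FANCM and MCM3AP-AS1 in A8i only, UNG in A8i-A only and MCM5 in A8i-B only. ERCC4 encodes the XPF nuclease, UNG the glycosylase that removes uracil from DNA, and MCM5 a subunit of the replicative helicase. Of all genes in the table, 167 were listed at 0 in all 4 libraries, and none of the repair and replication genes was among them.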
